A study of Mus musculus with 29 samples.

Results

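RNA-seq of the embryonic mouse cortex was compared between 4 libraries labelled dcKO and given vehicle and 4 libraries labelled WT and given vehicle, out of the 29 samples of the series, with all genes as the readout. The 8 libraries were found by their labels of genotype and treatment, and all came from C57BL/6J embryos at E17.5. In dcKO embryos both floxed alleles of Baf155 (Smarcc1) and of Baf170 (Smarcc2) were to be deleted by the hGFAP-Cre transgene, and the WT label gives a wild-type genotype, while the methods of the study name heterozygous floxed embryos with Cre as controls. Vehicle was DMSO, injected daily into the pregnant mother, and both groups received it. The human GFAP promoter drives Cre in late progenitors of the pallium, first in the medial part and later in the dorsal and lateral parts, so cells outside that lineage keep both genes. The sources do not say whether a library came from 1 embryo or a pool, or whether libraries of a group came from separate litters. P-values therefore measure the spread between libraries. That spread was estimated together with 4 dcKO libraries given a Wnt inhibitor, which are not compared here.

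BAF (mSWI/SNF) complexes are ATP-driven remodelers that slide or evict nucleosomes and so open or close regulatory DNA. BAF155 and BAF170 are scaffold subunits that hold the complex together, and other subunits are lost from the cell when both are missing. In the developing cortex radial glia act as stem cells, divide through intermediate progenitors and give rise to deep-layer neurons first and upper-layer neurons later, before they turn to making astrocytes.

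Each table held whole-number counts for 48709 genes, and library totals ran from 21516995 to 22953776 reads in dcKO and from 12514443 to 26600594 in WT, with WT replicate 3 the lowest. The cortical markers of the labels were present throughout: Neurod2, a neuronal differentiation factor, lay between 411 and 602 CPM (reads scaled to a fixed library size), and Tbr1, a deep-layer factor, between 271 and 387. Sex-linked RNA differed between libraries within both groups. In dcKO replicate 1 both Xist, at 673 CPM, and Y-linked genes, at a sum of 123 CPM, were present, whereas each of the other 7 libraries had Xist or Y-linked RNA at a high level but not both.

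The targeted genes were examined first. Smarcc1 (chr9:110117708-110240178, mm10) was at 136, 242, 133 and 138 CPM in dcKO replicates 1 to 4 and at 245, 266, 299 and 256 CPM in WT. Smarcc2 (chr10:128459248-128490482) was at 439, 692, 425 and 435 CPM in dcKO and at 834, 716, 664 and 711 CPM in WT. For both genes dcKO replicates 1, 3 and 4 lay close together and far below WT, while replicate 2 lay just below the lowest WT library for Smarcc1 and inside the WT range for Smarcc2. With all libraries the log2 fold change of dcKO against WT was -0.71 ± 0.21 (SE) for Smarcc1, with an edgeR adjusted p of 0.289, and -0.55 ± 0.18 for Smarcc2, with an adjusted p of 0.337. Without dcKO replicate 2 it was -0.97 ± 0.17 for Smarcc1 (edgeR adjusted p = 0.0085) and -0.76 ± 0.15 for Smarcc2 (edgeR adjusted p = 0.0174). That call was lost for Smarcc1 when dcKO replicate 1 or 3 was left out as well (-0.97 and -0.96). For Smarcc2 it was lost when dcKO replicate 1, 3 or 4 or WT replicate 2 or 4 was left out as well (-0.77 to -0.74). Replicate 2 was left out for its values of these same genes. The lower fold changes and p-values without it follow in part from that choice and are no test of the deletion. Counts are summed over the whole gene, undeleted exons and undeleted cells included, so these levels do not give the share of cells that lost the proteins.

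**Figure D1:**
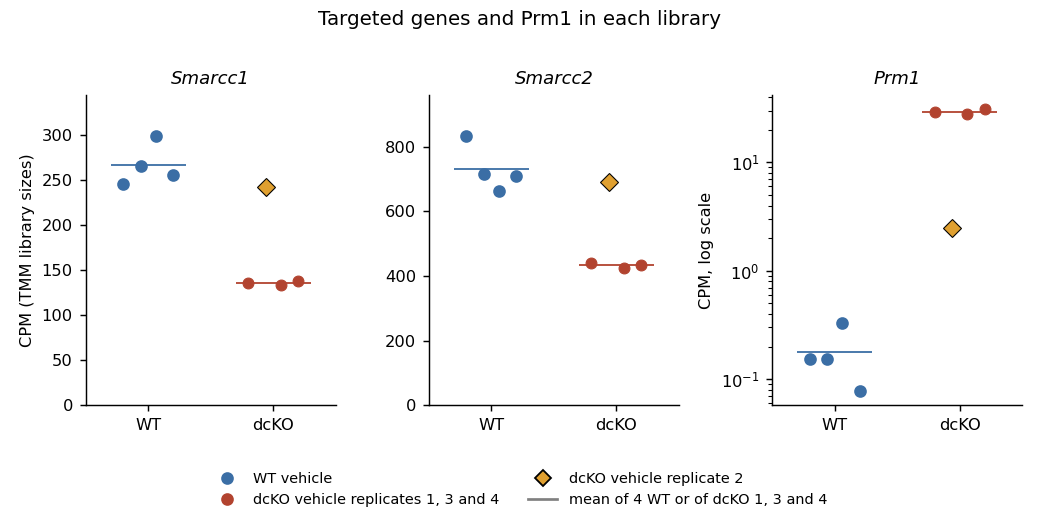
Level of Smarcc1, Smarcc2 and Prm1 in each library (y axis, CPM with TMM library sizes; linear from 0 for the first 2 genes, logarithmic for Prm1). Points are libraries (WT blue, dcKO red, dcKO replicate 2 an orange diamond) and lines are the means of the 4 WT libraries and of dcKO replicates 1, 3 and 4; the diamond lies near WT for Smarcc1 and Smarcc2 and between both groups for Prm1.

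Because of this library, each result is given with all libraries and without dcKO replicate 2. A gene is said to have risen or fallen only where its adjusted p (Benjamini-Hochberg over all genes tested, edgeR quasi-likelihood test) was under 0.05, and unless stated otherwise this is the test without replicate 2. With all libraries 16372 genes were tested, 1 rose (0.00611% of those tested) and 0 fell, although at an unadjusted p below 0.05 there were 677 genes above and 872 genes below WT, and DESeq2 called 85 higher and 35 lower. The looser limit used below for all libraries, an unadjusted p under 0.01, was met by 255 genes above WT (1.56%) and 212 below (1.29%). Without replicate 2, 222 of 16526 genes rose (1.34%) and 340 fell (2.06%), 562 in all (3.4%). Of the 222 genes that rose, 163 were also higher at an unadjusted p under 0.01 with all libraries, and of the 340 that fell, 108 were also lower there. Leaving out dcKO replicate 1, 3 or 4 or WT replicate 2 or 4 as well lowered the counts to between 38 and 78 higher and between 77 and 167 lower, and 48 of the 116 named genes called without replicate 2 kept their call with each further library left out. Replicate 2 was left out for its own Smarcc1 and Smarcc2 values, and the spread within dcKO is smaller without it, so the p-values of that test do not cover the doubt about its label.

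The level of replicate 2 on the genes called without it was described next. Among the 562 genes called without it, its level lay inside the range of the 4 WT libraries for 300, or 53.4%, and inside the range of the other 3 dcKO libraries for 6, or 1.07%. On the log2(CPM + 1) scale its median distance from the WT mean, taken as a percentage of the distance of the other 3 dcKO libraries, was 14.4% for the genes that rose and -4.06% for those that fell. It lay on the dcKO side of the WT mean for 63.5% of the genes that rose and 45.6% of those that fell. The mean correlation of its log2(CPM + 1) profile across all tested genes, which were not chosen by their difference, was 0.9893 with WT and 0.9871 with the other dcKO libraries, whereas dcKO replicates 1, 3 and 4 had 0.9856 to 0.986 with WT and 0.9926 to 0.9934 with the other dcKO libraries, replicate 2 included. WT replicates 1 and 3 also had a higher mean with dcKO (0.9839 and 0.9837) than with the other WT libraries (0.9822 and 0.9815). WT replicates 2 and 4 did not. This measure therefore did not sort all libraries by their label. The 562 genes were chosen with dcKO replicates 1, 3 and 4 close together and far from WT, which by itself puts a library left out of the choice outside their range, and Smarcc1 and Smarcc2 are among them. These shares are therefore a description. With dcKO replicate 1, 3 or 4 left out instead and replicate 2 kept, 0 genes rose and 0 fell, so no such shares could be taken for comparison.

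**Figure D2:**
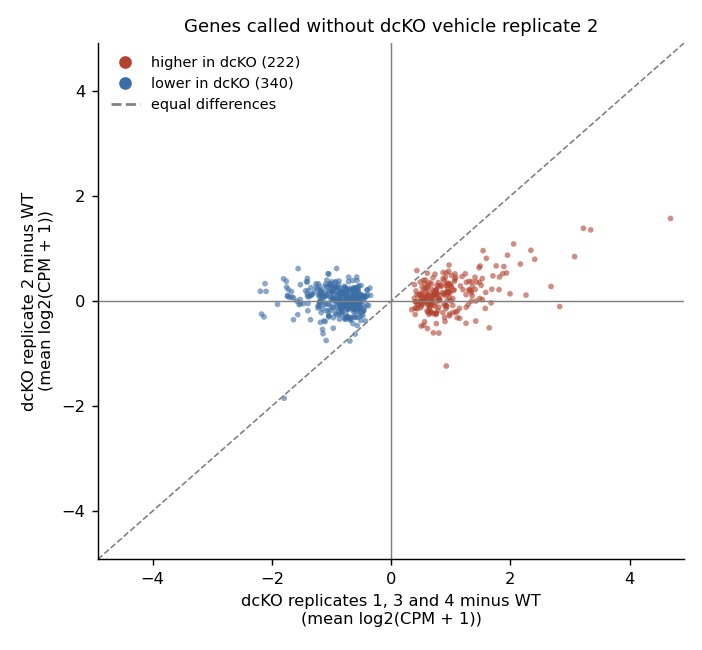
Difference from the WT mean in log2(CPM + 1) for dcKO replicates 1, 3 and 4 (x axis, mean) and for dcKO replicate 2 (y axis), for the 222 genes called higher (red) and the 340 called lower (blue) without replicate 2. Points spread along the horizontal line at 0, not along the dashed line of equal differences.

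Prm1 (chr16:10796326-10805839) was the only gene past the adjusted threshold with all libraries. It encodes protamine 1, which packs DNA in sperm heads, and is not a gene of the cortex. Its level was 28.9, 2.49, 28.1 and 30.8 CPM in dcKO and 0.153, 0.154, 0.331 and 0.0775 CPM in WT, with no overlap and with replicate 2 between the groups. The 4 dcKO and 4 WT libraries did not overlap for 5.66% of all genes tested. Genes named by the smallest p with all libraries had to meet this condition, so it adds no support for them or for Prm1. The log2 fold change was 7.10 ± 0.93 with all libraries (edgeR adjusted p = 0.0493) and 7.48 ± 0.60 without replicate 2 (edgeR adjusted p = 0.000249). It passed without replicate 2 under every alternative run. With all libraries it is the gene behind the count of 1, which became 0 with DESeq2 size factors or without the filter on low counts. Prm2 and Tnp1 had no read in any of the 8 libraries, and Prm3 and Tnp2 stayed at or below 0.0827 CPM. Prm2, Tnp1 and Tnp2 also pack DNA in developing sperm, and Prm3 lies in the same gene cluster. Sequence of Prm1 is a common end piece of transgene constructs, and the sources used here do not give the construct of the Cre line. Whether the Prm1 reads came from such a sequence was not tested.

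Genes of cortical neuron identity were lower in dcKO replicates 1, 3 and 4. Of 15 listed genes tested, 7 fell and 0 rose without replicate 2, with a median log2 fold change of -0.47 against -0.01 over all genes, and with all libraries 1 was lower at an unadjusted p under 0.01 (median -0.33). Fezf2, which specifies neurons that project below the cortex, was at 56.8, 174, 56.7 and 59.6 CPM in dcKO and 138, 117, 114 and 117 CPM in WT. The 3 dcKO libraries had less than any WT library, and replicate 2 had more than any. Its log2 fold change was -1.08 ± 0.12 without replicate 2 (edgeR adjusted p = 0.0018) and -0.49 ± 0.30 with all libraries (edgeR adjusted p = 0.678). In bulk tissue, fewer cells of a type and less RNA per cell cannot be told apart.

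The other cortical factors that fell act in progenitors and neurons of the pallium. Lhx2, a selector of cortical fate, was at 96.6, 245, 104 and 119 CPM in dcKO and between 188 and 208 CPM in WT (log2 fold change -0.89 ± 0.10 without replicate 2). Neurod6, a factor of excitatory neurons, was at 261, 813, 266 and 330 CPM in dcKO and at 525, 646, 1044 and 612 CPM in WT, where the spread was wide (-1.31 ± 0.21). Emx1, which marks pallial progenitors and their neurons, was at 17, 44.9, 14.4 and 19.5 CPM in dcKO and between 30.6 and 44.1 CPM in WT (-1.05 ± 0.20). The 3 dcKO libraries without replicate 2 did not overlap WT for any of these genes, as held for 18.4% of all genes tested in that set. Bcl11a, a factor of deep-layer neurons and itself counted among BAF-associated proteins, was at 183, 413, 213 and 224 CPM in dcKO and at 331, 412, 478 and 401 CPM in WT, and also fell (-0.97 ± 0.15, edgeR adjusted p = 0.00557). Neurod2 and Tbr1 did not pass the test, with log2 fold changes of -0.15 ± 0.11 and -0.10 ± 0.12.

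By layer, 6 of 21 upper-layer genes tested fell and 0 rose (median -0.54), and 5 of 21 deep-layer genes fell and 1 rose (median -0.33). Among upper-layer genes Dok5, a signalling adaptor, fell by 1.02 ± 0.17, Lmo4, a transcriptional cofactor of the LIM class, by 0.70 ± 0.11, and Pou3f3, a POU factor, by 0.56 ± 0.11 on the log2 scale. Among deep-layer genes Crym, a thyroid hormone binding protein of neurons that project below the cortex, fell by 0.97 ± 0.23, Ccn2, a secreted protein of the subplate, by 0.95 ± 0.18, and Zfpm2, a cofactor of corticothalamic neurons, by 0.56 ± 0.14. The deep-layer gene that rose was Nxph4, a ligand of neurexins found in the subplate. It was at 45.5, 18.5, 42.0 and 43.3 CPM in dcKO and at 18.8, 13.8, 15.2 and 15.7 CPM in WT, so that replicate 2 alone lay inside the WT range (log2 fold change 1.46 ± 0.22, edgeR adjusted p = 0.00557). In the list of the hippocampus and medial pallium 3 of 24 genes fell and 0 rose (median -0.18). Those were Etv4, the mineralocorticoid receptor gene Nr3c2 and the nuclear factor gene Nfix, whose call was lost with lane as a term.

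**Figure D3:**
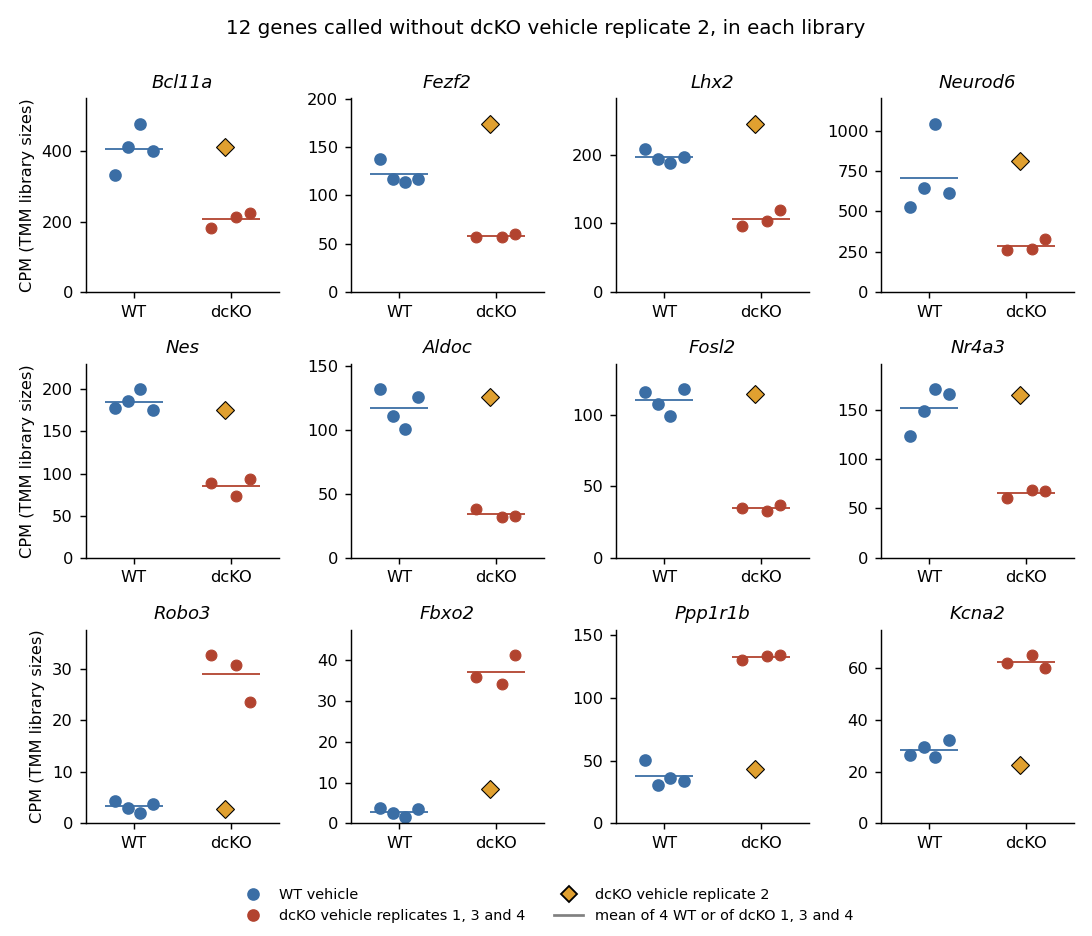
Level of 12 genes in each library (y axis, CPM with TMM library sizes, from 0), with WT in blue, dcKO replicates 1, 3 and 4 in red and dcKO replicate 2 as an orange diamond; lines are means of the 4 WT and of the 3 dcKO libraries. The upper 8 genes were lower and the lowest 4 higher in the 3 dcKO libraries than in any WT library, and the diamond lies within, beside or beyond the WT points for 11 of them and above them, on the dcKO side, for Fbxo2.

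Radial glia genes fell in part. Of 26 tested, 5 fell and 0 rose (median -0.11). Nes, the intermediate filament nestin, was at 88.2, 175, 73.6 and 93.2 CPM in dcKO and at 178, 186, 200 and 176 CPM in WT. Its log2 fold change was -1.12 ± 0.20 without replicate 2 (edgeR adjusted p = 0.00999). Aldoc, a glycolytic enzyme of glia, had the largest change of the list and was at 38.5, 126, 32.2 and 32.7 CPM in dcKO and at 132, 111, 101 and 126 CPM in WT (-1.77 ± 0.25). Pdpn, a membrane glycoprotein, Hopx, a marker of outer and hippocampal radial glia, and Tnc, a matrix protein of the germinal zone, fell by 1.48 ± 0.21, 1.07 ± 0.22 and 0.69 ± 0.11 on the log2 scale. At an unadjusted p under 0.01 with all libraries Hes5, the Notch target, and Mfge8, a secreted glycoprotein, were higher, and neither passed the adjusted test (0.64 ± 0.20 and 0.67 ± 0.22 with all libraries). At the same limit Nes and Glul, the glutamine synthetase of glia, were lower (-0.78 ± 0.25 and -0.29 ± 0.09 with all libraries), and Glul did not pass the adjusted test.

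Of 16 genes of intermediate progenitors, 4 fell and 0 rose, while the median was 0.11. Eomes (Tbr2), which defines these cells, was at 53.2, 153, 44.5 and 60.6 CPM in dcKO and at 84.9, 101, 132 and 86.6 CPM in WT (log2 fold change -0.94 ± 0.17, edgeR adjusted p = 0.0123). Replicate 2 had the highest level of all 8 libraries. The others were Mfap4, a matrix protein (-1.91 ± 0.30), the rhomboid-like gene Rhbdl3 (-1.03 ± 0.24), and Sstr2, a somatostatin receptor (-0.93 ± 0.13).

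Part of the genes of maturing astrocytes fell. At an unadjusted p under 0.01 with all libraries 5 of 22 were lower and 0 higher (median -0.25), and without replicate 2, 5 of 23 fell and 0 rose (median -0.34). Aqp4, the water channel of astrocyte endfeet, was at 2.39, 3.74, 3.62 and 2.38 CPM in dcKO and at 5.01, 7.27, 6.62 and 9.76 CPM in WT, so that all 4 dcKO libraries lay below all 4 WT libraries. Its log2 fold change was -1.24 ± 0.28 with all libraries (edgeR adjusted p = 0.221) and -1.36 ± 0.30 without replicate 2 (edgeR adjusted p = 0.0279). Sparcl1, a secreted promoter of synapse formation, the bicarbonate transporter gene Slc4a4 and the proteoglycan gene Bcan fell by 0.73 ± 0.10, 0.88 ± 0.18 and 1.18 ± 0.29 on the log2 scale, and Bcan did not pass without the filter on low counts. Kcnj10, the potassium channel by which astrocytes buffer potassium, was at 10.9, 31.3, 11 and 9.98 CPM in dcKO and between 30.1 and 33.9 CPM in WT, and fell by 1.61 ± 0.23 on the log2 scale.

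In the oligodendrocyte lineage Pdgfra, the receptor of precursors, rose (0.76 ± 0.17, edgeR adjusted p = 0.0265). It was the only one of 18 genes tested that passed. Gpr17 and Bcas1, which mark later stages, were lower at an unadjusted p under 0.01 with all libraries, and all 4 dcKO libraries lay below WT for both. Gpr17 was at 9.92, 9.44, 9.89 and 8.02 CPM in dcKO and at 16.5, 13.5, 13.5 and 18.2 CPM in WT. Their log2 fold changes with all libraries were -0.73 ± 0.18 and -1.16 ± 0.32.

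Among the 23 immediate early genes tested, which neurons switch on within minutes of activity, 3 fell and 0 rose, although the median was above 0 (0.18). Fosl2, a subunit of the AP-1 factor, was at 35.0, 115, 32.6 and 36.6 CPM in dcKO and at 116, 108, 99.1 and 118 CPM in WT (log2 fold change -1.67 ± 0.17, edgeR adjusted p = 0.00145). The orphan nuclear receptor gene Nr4a3 was at 60.5, 165, 69.2 and 67.5 CPM in dcKO and at 124, 149, 171 and 166 CPM in WT (-1.21 ± 0.14). Both showed the 3 dcKO libraries well below WT and replicate 2 inside the WT range. Egr2 went the other way without passing, at 2.03, 0.490, 2.57 and 1.82 CPM in dcKO and from 0.165 to 0.581 CPM in WT (2.3 ± 0.58, edgeR adjusted p = 0.0511).

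Among axon guidance genes 2 of 46 rose and 4 fell. Robo3, a receptor by which axons cross the midline of the hindbrain and spinal cord, was at 32.7, 2.89, 30.7 and 23.6 CPM in dcKO and at 4.35, 2.97, 2.07 and 3.76 CPM in WT. Its log2 fold change was 3.11 ± 0.48 without replicate 2 (edgeR adjusted p = 0.00557). Ntn4, a secreted netrin, also rose (1.06 ± 0.24). The semaphorin genes Sema3c and Sema7a and the semaphorin receptor gene Nrp1 fell by 1.24 ± 0.21, 0.87 ± 0.16 and 1.01 ± 0.19 on the log2 scale, and so did Ntng2, a membrane-bound netrin relative (0.80 ± 0.19). Of 37 potassium and sodium channel genes 1 rose and 2 fell, Kcnj10 and the inward rectifier gene Kcnj2. The one that rose was Kcna2, a voltage-gated potassium channel of axons, which was at 62.1, 22.5, 65.0 and 60.1 CPM in dcKO and at 26.3, 29.7, 25.6 and 32.4 CPM in WT (1.13 ± 0.15, edgeR adjusted p = 0.00394).

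Of the Wnt pathway, 5 of 49 genes rose and 2 fell without replicate 2 (median 0.19), and with all libraries and an unadjusted p under 0.01 the counts were 10 above and 1 below WT (median 0.13). Among ligands, Wnt2b, which is made at the cortical hem, was at 11.6, 5.26, 11.1 and 11.5 CPM in dcKO and at 3.53, 5.02, 3.06 and 4.03 CPM in WT, without overlap (log2 fold change 1.53 ± 0.26, edgeR adjusted p = 0.0085). Wnt7a, a ligand of ventricular progenitors, rose by less (0.45 ± 0.10), and Wnt5b fell (-1.12 ± 0.20). The receptor gene Fzd5 was at 5.86, 3.52, 5.66 and 8.07 CPM in dcKO and between 2.10 and 2.40 CPM in WT, again without overlap (1.52 ± 0.24, edgeR adjusted p = 0.00567). Among secreted inhibitors Wif1 rose (1.62 ± 0.35) and Dkk3 fell (-0.85 ± 0.20). Sfrp1 was at 225, 176, 226 and 241 CPM in dcKO and 108, 128, 152 and 124 CPM in WT. Dkk1 lay between 0.0511 and 1.12 CPM throughout. Each missed the adjusted threshold at an edgeR adjusted p of 0.0511. So did Rspo2 (1.06 ± 0.27) and Ccnd1 (0.65 ± 0.16), which are not secreted inhibitors, at the same adjusted p. Axin2, a feedback target of the pathway, was at 47.9, 32.6, 46.8 and 46.1 CPM in dcKO and at 32.1, 32.1, 25.2 and 32.5 CPM in WT (0.62 ± 0.16, edgeR adjusted p = 0.0496), and replicate 2 lay just above the WT libraries.

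The Hedgehog list had 2 of 16 genes that rose and 0 that fell (median 0.20). Gli1, the transcription factor whose level reports pathway activity, was at 22.4, 14.3, 18.0 and 22.7 CPM in dcKO and at 12.8, 9.57, 7.86 and 9.80 CPM in WT, with all 4 dcKO libraries above WT. Its log2 fold change was 1.06 ± 0.24 (edgeR adjusted p = 0.0278). Disp1, which releases the ligand, rose as well (0.90 ± 0.20). Both calls were lost when dcKO replicate 1, 3 or 4 or WT replicate 2 or 4 was left out as well, and that of Gli1 also without WT replicate 3. Gli1 is also among the neighbours of Smarcc2 counted below. The co-receptor gene Cdon and the factor gene Gli2 were higher at an unadjusted p under 0.01 with all libraries and did not pass the adjusted test (0.48 ± 0.15 and 0.61 ± 0.16 without replicate 2).

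Of 27 FGF pathway genes 2 rose and 6 fell without replicate 2 (median -0.14). The receptor genes parted. Fgfr1 was at 107, 266, 97.3 and 109 CPM in dcKO and at 250, 222, 188 and 225 CPM in WT, and fell (-1.09 ± 0.17, edgeR adjusted p = 0.00557). Fgfr2 was at 79.6, 56.2, 80.3 and 80.5 CPM in dcKO and at 41.5, 45.9, 52.8 and 43.7 CPM in WT, and rose (0.80 ± 0.14, edgeR adjusted p = 0.00998). The ligand gene Fgf17 rose at a level near 1 CPM (1.42 ± 0.32). Of the others that fell, 4 are known as targets or feedback inhibitors of FGF signalling: the ETS factor genes Etv4 and Etv5 (-1.16 ± 0.26 and -0.72 ± 0.11), the ERK phosphatase gene Dusp6 (-0.66 ± 0.10) and the inhibitor gene Spry4 (-0.69 ± 0.14). The sixth was Flrt1, a membrane partner of FGF receptors (-1.24 ± 0.31). With all libraries none of these 6 was lower at an unadjusted p under 0.01, and replicate 2 lay inside or above the WT range in all 6, as in Etv5 (22.8, 46.4, 25.1 and 24.4 CPM in dcKO against 37.4 to 42.6 CPM in WT).

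Of 32 BMP and TGF-beta genes 1 rose and 5 fell (median -0.08). Tgfb3, a ligand, rose without overlap between the 4 and 4 libraries (1.04 ± 0.23). The receptor genes Acvr1 and Bmpr1b, the ligand trap gene Grem1, the inhibitory Smad gene Smad6 and the target gene Id2 fell, Id2 from between 249 and 305 CPM in WT to 133, 137 and 161 CPM in dcKO, with 352 CPM in replicate 2 (-0.95 ± 0.13). In the Notch list 1 of 26 genes fell, Mfng, a glycosyltransferase that tunes the receptor (-1.28 ± 0.23), and 0 rose. In the Hippo list Amot, an inhibitor of YAP, rose (0.92 ± 0.19), and Ccn2 and Frmd6 fell. Acvr1 and Frmd6 did not pass without the filter on low counts.

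**Figure D4:**
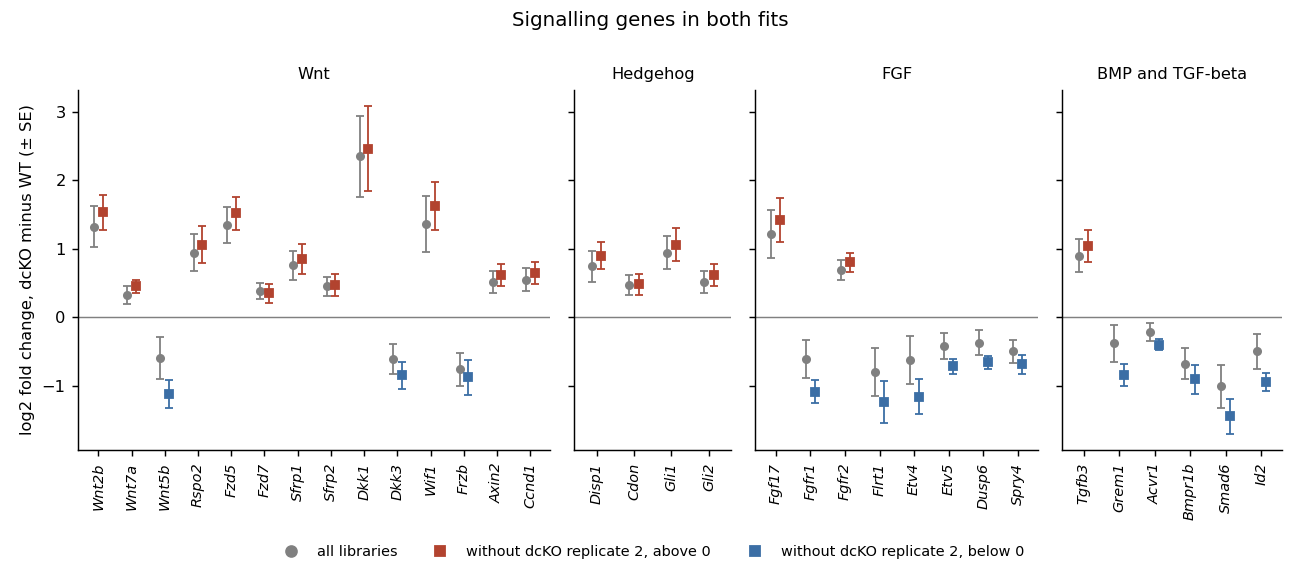
Log2 fold change of dcKO against WT (y axis, ± SE) with all libraries (grey circles) and without dcKO replicate 2 (squares, red above 0 and blue below) for the members of 4 signalling lists that were called without replicate 2 or had an unadjusted p under 0.01 with all libraries. Every gene has the same sign in both fits; the 6 FGF genes below 0 lie farther from 0 without replicate 2.

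Shox2, a homeodomain factor of the thalamus and hindbrain, had almost no reads in WT. It was at 8.61, 1.69, 9.54 and 7.88 CPM in dcKO, and WT had 3 reads in all 4 libraries. Replicates 1, 3 and 4 of dcKO together had 579 reads, so the ratio to WT was 223 (95% exact interval 76.0 to 1086, counting error only). It rose (edgeR adjusted p = 0.00998), and did not pass without the filter on low counts.

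Other genes rose several-fold from a low level. Fbxo2, a ubiquitin ligase subunit that binds glycoproteins, was at 35.9, 8.55, 34.2 and 41.3 CPM in dcKO and at 3.73, 2.46, 1.65 and 3.49 CPM in WT (3.67 ± 0.57, edgeR adjusted p = 0.00567). All 4 dcKO libraries lay above WT. Kirrel2, an adhesion protein, was at 6.18, 0.445, 7.02 and 3.59 CPM in dcKO and between 0.232 and 0.461 CPM in WT (4.06 ± 0.53). Esrrb, an orphan nuclear receptor of pluripotent cells, was at 4.10, 0.623, 4.62 and 4.24 CPM in dcKO and between 0.563 and 0.818 CPM in WT (2.69 ± 0.30). Ebf3, a factor of Cajal-Retzius cells, rose from between 7.72 and 12.4 CPM in WT to 29, 33.9 and 35.9 CPM, with 9.26 CPM in replicate 2 (1.66 ± 0.27), and was the only one of 13 genes of that cell type that passed. Tifa, an adaptor of innate immune signalling, was at 14.7, 4.85, 18.3 and 17.9 CPM in dcKO and between 2.05 and 2.56 CPM in WT (2.83 ± 0.48). It too did not pass without the filter on low counts.

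Ppp1r1b, the dopamine-regulated phosphatase inhibitor of striatal neurons, was at 130, 43.1, 133 and 134 CPM in dcKO and at 50.3, 30.2, 35.9 and 34.1 CPM in WT (1.81 ± 0.27, edgeR adjusted p = 0.00557). In the list of subpallial and thalamic genes 2 of 19 rose, Ppp1r1b among them, and 2 fell, Lhx2 and Prkcd (median 0.54). The defining markers there did not move with it past the test. Drd2, of striatal neurons, was at 3.20, 0.757, 3.53 and 2.80 CPM in dcKO and at 3.68, 1.79, 1.41 and 1.74 CPM in WT, and Nkx2-1 was between 1.69 and 3.79 CPM in all 8 libraries. The summed level of the list was 394 to 446 CPM in the 3 dcKO libraries, 426 in replicate 2 and 395 to 416 in WT. Of 23 interneuron genes 1 rose, Dlx5 (0.80 ± 0.20, edgeR adjusted p = 0.0498), with 0 lower (median 0.28). The Dlx5 call was lost with a replicate block. The summed level of the interneuron list was 1454 to 1609 CPM in the 3 dcKO libraries, 1034 in replicate 2 and 1166 to 1309 in WT.

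No Hox gene passed the filter on low counts, so 0 of 27 were tested. Raw reads over the 27 genes were 22, 4, 21 and 24 in dcKO and 2, 4, 0 and 6 in WT, from 11, 3, 9 and 7 genes in dcKO and 2, 3, 0 and 4 genes in WT. Of 23 imprinted genes tested, Grb10, a growth-limiting adaptor, and Peg10, a retrotransposon-derived placental gene, rose (0.75 ± 0.17 and 1.25 ± 0.30) and 0 fell, but Peg10 did not pass without the filter on low counts. Of the 28 BAF subunit genes, the ATPase gene Smarca2 (Brm) fell besides Smarcc1, Smarcc2 and Bcl11a. It was at 283, 358, 291 and 304 CPM in dcKO and at 372, 374, 400 and 378 CPM in WT, without overlap (-0.38 ± 0.08, edgeR adjusted p = 0.0269), and its call was lost without the filter on low counts.

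Lists of other cell types that the dissection could hold were examined in the same way. Of 23 microglia genes 4 rose and 0 fell (median 0.34), and with all libraries and an unadjusted p under 0.01, 6 stood above and 0 below WT. The 4 were Spp1 (osteopontin), Gpnmb, Lyz2 and Lgals3, genes that macrophages and phagocytic microglia express. Spp1 was at 23.2, 7.21, 23.8 and 15.2 CPM in dcKO and at 3.12, 1.69, 3.39 and 5.42 CPM in WT, and all 4 dcKO libraries lay above WT (2.59 ± 0.35, edgeR adjusted p = 0.00394). Gpnmb was at 6.40, 1.2, 7.97 and 2.38 CPM in dcKO and between 0.205 and 0.659 CPM in WT (3.86 ± 0.50). Lyz2 was at 5.41, 1.83, 5.62 and 2.70 CPM in dcKO and between 0.910 and 1.43 CPM in WT (1.92 ± 0.28). The markers that define resting microglia did not rise with them: Cx3cr1 was at 13.5, 8.68, 13.2 and 10.5 CPM in dcKO and at 10.5 to 12 CPM in WT, Csf1r at 14 to 20 against 18.1 to 19.3 CPM, and P2ry12 at 1.98 to 3.7 against 2.51 to 8.19 CPM. The summed level of the list was 134 to 182 CPM in the 3 dcKO libraries, 112 in replicate 2 and 115 to 126 in WT.

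Of 29 genes of endothelium and pericytes 2 fell and 0 rose (median -0.19), Flt1, a VEGF receptor (-0.53 ± 0.13, not passing without the filter on low counts), and Slco1c1, a thyroxine transporter of brain vessels and astrocytes (-1.39 ± 0.19). The summed level was 465 to 514 CPM in the 3 dcKO libraries and 545 to 627 in WT, and 5 of the 29 genes had a log2 fold change above 0. Of the defining endothelial markers Cldn5 and Pecam1 overlapped between groups, while Kdr was at 44.4, 40, 45.8 and 39.9 CPM in dcKO and at 53.8, 57.2, 46.3 and 52.5 CPM in WT, without overlap. Kdr was lower with all libraries at an unadjusted edgeR p of 0.00746 and did not pass the adjusted test (-0.30 ± 0.10). Of 34 genes of the meninges and extracellular matrix 1 rose and 2 fell (median -0.35). Cemip, a hyaluronan-degrading protein, rose (1.32 ± 0.26), and Fbln2 and Lamb1 fell (-1.54 ± 0.26 and -0.65 ± 0.16). Col1a1, a fibroblast collagen, stood at 16 and 14.4 CPM in WT replicates 2 and 4 and between 1.08 and 4.75 CPM in the other 6 libraries. Ttr, the main product of the choroid plexus, stood at 114 CPM in WT replicate 4 and 11.4 CPM in WT replicate 2 and between 3.14 and 5.80 CPM elsewhere. In the list of choroid plexus and cilia 2 of 21 genes rose and 0 fell, the axonemal gene Tekt1 (1.62 ± 0.32) and the secreted augurin gene 1500015O10Rik, which was at 15.3, 7.53, 11.9 and 21.0 CPM in dcKO and at 2.56 to 3.56 CPM in WT. The part of meningeal or choroid tissue in the lower matrix genes was not tested.

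Few genes of the stress and metabolism lists passed. Of 21 genes of the integrated stress response 2 rose and 0 fell, the serine synthesis gene Psat1 and the mTOR inhibitor gene Ddit4, while the median was -0.08. Psat1 was at 159, 100, 150 and 175 CPM in dcKO and at 67.0, 80.9, 87.6 and 73.1 CPM in WT, without overlap (1.07 ± 0.19, edgeR adjusted p = 0.0109). Ddit4 was at 185, 118, 203 and 232 CPM in dcKO and at 135, 99.5, 85.2 and 105 CPM in WT (0.96 ± 0.20). Xbp1, of the unfolded protein response, and Ndrg1, of the hypoxia response, each were the only one of their list to fall (-0.47 ± 0.10 and -0.63 ± 0.14), with 0 that rose, and the call of Xbp1 was lost without the filter on low counts. Grin2a, a glutamate receptor subunit, alone fell among 32 receptor genes (-1.04 ± 0.26), with 0 that rose, and its call was lost with a replicate block. In the interferon list Ifih1, a sensor of double-stranded RNA, rose alone among 20, from 0.716 to 1.23 CPM in WT to 4.19, 3.14 and 4.90 CPM, with 1.34 CPM in replicate 2 (1.97 ± 0.31).

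In 10 lists no tested member passed the adjusted edgeR test without replicate 2, among them DNA replication (33 genes tested), mitosis (32), p53 targets (25), oxidative phosphorylation (31), cytosolic ribosomal proteins (38), cholesterol synthesis (24), synaptic vesicle and release (29), the retinoic acid pathway (17) and red blood cells (8). Over the 242 genes of these 10 lists 10 lay above and 16 below WT at an unadjusted p below 0.05, and DESeq2 called 3 higher and 4 lower. Over all 16526 genes tested without replicate 2, 1032 lay above and 1367 below at that limit, and DESeq2 called 417 and 602. Mki67, a marker of cycling cells, was at 123, 134, 104 and 119 CPM in dcKO and at 121, 132, 161 and 110 CPM in WT. Its log2 fold change was -0.18 ± 0.16. In cholesterol synthesis 7 of the 16 lower genes were found, and the list median was -0.21. Hmgcs1, which makes the first precursor of the pathway, was at 609, 713, 722 and 689 CPM in dcKO and at 698, 811, 934 and 922 CPM in WT (-0.32 ± 0.13, edgeR adjusted p = 0.266).

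**Figure D5:**
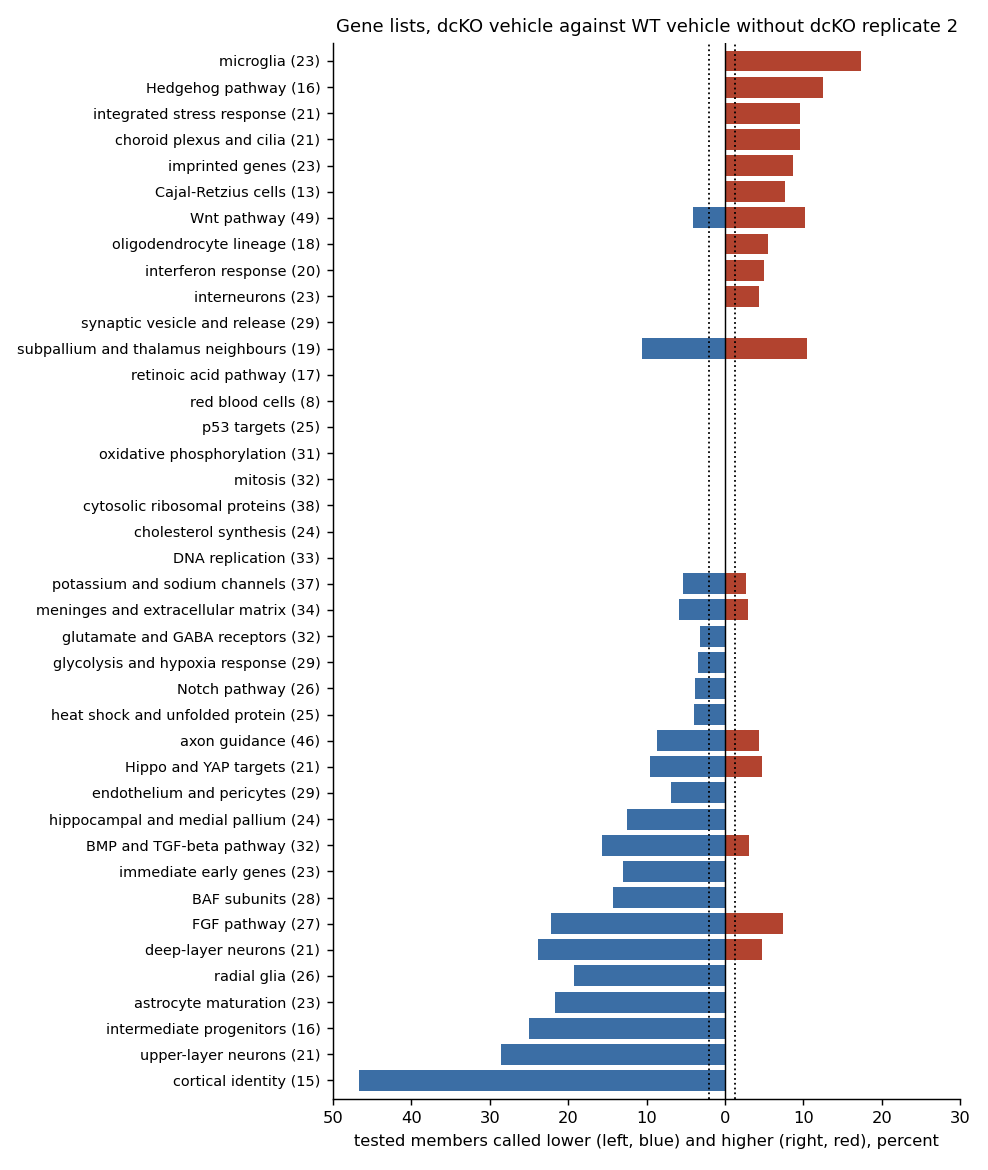
Percentage of tested members of each gene list called higher (right, red) or lower (left, blue) in dcKO without replicate 2 (x axis, percent; the number tested stands in brackets; dotted lines mark 1.34% and 2.06%, the shares among all genes). Cortical identity, upper-layer, intermediate progenitor and deep-layer lists reach farthest to the left, and microglia and Hedgehog farthest to the right.

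Of genes that fell without belonging to a list, Lmo7, an adaptor of adherens junctions, had the smallest p of the named genes that fell. It was at 31.1, 110, 29.2 and 30.1 CPM in dcKO and at 99.7, 107, 111 and 95.9 CPM in WT (-1.78 ± 0.18, edgeR adjusted p = 0.00145). Ezr (ezrin), which ties the membrane to actin at the apical surface, was at 52.9, 144, 49.0 and 57.2 CPM in dcKO and between 103 and 127 CPM in WT (-1.12 ± 0.13). Dct, an enzyme of melanin synthesis also found in radial glia, was at 0.541, 6.77, 0.174 and 0.839 CPM in dcKO and between 3.43 and 8.44 CPM in WT (-3.55 ± 0.45). Tac2, the neurokinin B precursor, was at 0.18, 3.25, 0.174 and 0.233 CPM in dcKO and between 3.94 and 5.04 CPM in WT (-4.40 ± 0.88), and did not pass without the filter on low counts. With all libraries the smallest p among the named lower genes belonged to Rpl29, a ribosomal protein gene on the chromosome of Smarcc1. It was at 1.44, 1.07, 0.741 and 1.35 CPM in dcKO and at 11.5, 9.77, 1.57 and 8.02 CPM in WT, so that WT replicate 3 lay near dcKO (-2.76 ± 0.45, edgeR adjusted p = 0.176). Ribosomal protein genes have many near-identical processed copies, and the counting could split their reads, so this value is uncertain.

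Genes beside the targeted loci were counted because flanking DNA is carried along with a floxed allele. Within 5 Mb of the start of Smarcc1, 4 of 159 genes tested passed without replicate 2, or 2.52%, and within 5 Mb of Smarcc2 5 of 87, or 5.75%. Over the whole of chromosomes 9 and 10 the shares were 3.73% and 5.04%, against 3.4% of all genes. The neighbours were Rpl29, Lamb2, Cdc25a and Pth1r on chromosome 9, and Gli1, Nxph4, Myo1a, Tac2 and Neurod4 on chromosome 10, of which Tac2 and Neurod4 did not pass without the filter on low counts.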

How the data were processed

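Total RNA (RNeasy) of E17.5 cortex was made into libraries with the TruSeq v2 kit, which does not mark strand. Per the methods of the study and the labels, the authors used STAR (genome mm10) for mapping and featureCounts for counts per gene. The annotation and versions are not given in the sources used here. The deposited values were raw counts per gene, with no normalization. The total count per library ran from 12514443 to 26600594, and low genes are limited by counting error. Counts of 12 treated libraries in 3 groups were fitted with edgeR 4.0.16 (TMM, filterByExpr, robust quasi-likelihood test) and dcKO vehicle was compared with WT vehicle, with and without dcKO replicate 2. The group not compared was the 4 dcKO libraries given a Wnt inhibitor, which entered the filter, the size factors and the estimate of spread. DESeq2 1.42.0 was an alternative, as were other size factors, no filter, lane, the replicate block, fewer libraries and leaving out each library. P-values were adjusted by Benjamini-Hochberg over all genes tested. CPM use TMM library sizes. Symbols and coordinates came from GENCODE M21, and 48349 of 48709 IDs matched. The samples, genes and 42 lists were chosen with earlier results of these data known. Named genes were Smarcc1 and Smarcc2, per direction the 12 genes with the smallest p in all libraries whose groups did not overlap, the 8 with the smallest p without replicate 2, the 6 largest changes, and up to 5 genes per list, or 2 of the highest level in a list with none. Other genes given with values are the fixed markers and list members chosen after their values were seen. The tests were run on simulated data first: of 200 genes changed by 1 on the log2 scale, 160 were recovered in the comparison of all libraries (16207 genes) and 147 without replicate 2 (16268 genes). False calls were 14 and 11. All simulated dcKO vehicle libraries carried the same change, so these numbers do not cover a group that holds a library like replicate 2. Peak files were not used here, nor were the libraries outside these 3 groups. Values of a few named genes and markers are not reported here.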

Additional observations from a re-analysis of the deposited data

Results flagged for a closer look

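In 222 groups of 4 libraries, the levels of each named gene printed here and the total counts in each genotype, the gap of the highest or lowest library to its neighbour was compared with Dixon's limit, which chance passes in about 1 of 20 groups of genes not chosen by their values. dcKO replicate 2 passed it for 58 genes. Most of the genes were chosen for a difference found without that library, with the other 3 close together, so the rate of 1 in 20 does not apply to this number.

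Replicate 2 had the highest dcKO level at 78.1 CPM for Acvr1, 126 CPM for Aldoc, 66.2 CPM for Bcan and 7.35 CPM for Ccn2. Likewise it stood above the other dcKO libraries at 6.77 CPM for Dct, 53.3 CPM for Dkk3, 91.3 CPM for Dok5, 40.7 CPM for Dusp6 and 153 CPM for Eomes. Its level was also the highest of dcKO at 20.2 CPM for Etv4, 46.4 CPM for Etv5, 144 CPM for Ezr, 31.2 CPM for Fbln2 and 174 CPM for Fezf2. Further values above the other 3 were 266 CPM for Fgfr1, 115 CPM for Fosl2, 11.1 CPM for Grem1, 13.6 CPM for Hopx and 352 CPM for Id2. Replicate 2 had the highest dcKO level at 31.3 CPM for Kcnj10, 54.4 CPM for Lamb1, 245 CPM for Lhx2, 110 CPM for Lmo7 and 42.0 CPM for Mfap4. Likewise it stood above the other dcKO libraries at 31.5 CPM for Mfng, 114 CPM for Ndrg1, 5.66 CPM for Neurod4, 813 CPM for Neurod6 and 1376 CPM for Nfix. Its level was also the highest of dcKO at 14.7 CPM for Nr3c2, 165 CPM for Nr4a3, 227 CPM for Nrp1, 22.7 CPM for Pdpn and 28.2 CPM for Rhbdl3. Further values above the other 3 were 155 CPM for Sema3c, 126 CPM for Sema7a, 35.3 CPM for Slc4a4 and 63.0 CPM for Slco1c1. Replicate 2 had the highest dcKO level at 242 CPM for Smarcc1, 692 CPM for Smarcc2, 240 CPM for Sparcl1, 11.9 CPM for Spry4 and 58.9 CPM for Sstr2. Likewise it stood above the other dcKO libraries at 3.25 CPM for Tac2, 473 CPM for Tnc, 4.14 CPM for Wnt5b and 7.17 CPM for Grin2a.

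On the other side, replicate 2 had the lowest dcKO level at 12.7 CPM for Cemip, 10.5 CPM for Dlx5, 0.623 CPM for Esrrb, 56.2 CPM for Fgfr2 and 22.1 CPM for Gli2. It also stood below the other dcKO libraries at 22.5 CPM for Kcna2, 18.5 CPM for Nxph4, 50.5 CPM for Peg10 and 43.1 CPM for Ppp1r1b. Further values below the other 3 were 2.49 CPM for Prm1 and 5.26 CPM for Wnt2b. In WT, Fezf2 stood apart in replicate 1 at 138 CPM, Lgals3 stood apart in replicate 3 at 0.744 CPM and Tac2 stood apart in replicate 3 at 5.04 CPM.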

How the results depend on the processing

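With all libraries, the adjusted edgeR counts of 1 higher and 0 lower were 0 higher with DESeq2 size factors, without the filter on low counts, with only the 8 libraries fitted, with lane as a term and in lane 1 alone. They were 62 and 78 in lane 2 alone, which holds no dcKO replicate 2, and 85 and 35 by DESeq2. Leaving out each library gave 0 to 222 higher and 0 to 340 lower, the upper ends without dcKO replicate 2 (otherwise at most 2 and 1). At an unadjusted p under 0.01 lane 1 alone gave 31 higher and 23 lower, lane 2 alone 453 lower and DESeq2 326 lower, and leaving out each library gave 129 to 481 higher and 60 to 714 lower. Without dcKO replicate 2 the adjusted counts were 417 and 602 by DESeq2, 386 and 528 with only the 7 libraries fitted, and 352 and 514 with lane as a term, and each further library left out gave 38 to 234 higher and 77 to 395 lower (309 to 514 and 428 to 821 at an unadjusted p under 0.01). The log2 fold change of Smarcc1 ranged from -0.97 to -0.63 over libraries left out, and from -1.01 to -0.91 without replicate 2, and was -1.04 and past the threshold in lane 2 alone. For Smarcc2 the ranges were -0.76 to -0.48 and -0.80 to -0.69. The cause of these shifts was not tested.

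In a fit with a replicate block, 4 genes were higher and 1 lower at the adjusted threshold and 370 lower at an unadjusted p under 0.01. Deviations of libraries with the same number correlated at 0.492, 0.0349, 0.0179 and 0.00428, so the numbers were not taken to pair the libraries. Without replicate 2 the block lost the calls of Smarca2, Dlx5 and Grin2a among the genes given.

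No value in these alternatives changed direction past the threshold. Of the 116 named genes called without replicate 2, 100 kept the call in every alternative with the same 7 libraries and 48 also with each further library left out. Shox2, with 3 reads in WT, is limited by counting error. Chi-square per gene between libraries of a group was 7.24 to 84.9, so no library was a copy of another in its group. Libraries of different groups were not compared in this way.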

Other observations

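Among genes in no list, Emp2, a membrane protein of the tetraspan class, was at 8.21, 11.9, 7.32 and 6.95 CPM in dcKO and at 18.4, 19.5, 14.5 and 19.4 CPM in WT. All 4 dcKO libraries lay below WT, and its log2 fold change without replicate 2 was -1.26 ± 0.21 (edgeR adjusted p = 0.00769). Pcsk2, a protease that matures neuropeptides, was at 24.9, 34.2, 25.9 and 23.5 CPM in dcKO and at 43.4, 39.8, 39.4 and 46.5 CPM in WT (-0.77 ± 0.14, edgeR adjusted p = 0.0123). Again the groups did not overlap, as the choice of these genes required. This held for 5.66% of all genes tested. In the other direction Aass, an enzyme of lysine breakdown, was at 2.07, 0.935, 2.14 and 1.82 CPM in dcKO and at 0.256, 0.358, 0.579 and 0.504 CPM in WT (2.25 ± 0.30, edgeR adjusted p = 0.00394). Rfx4, a factor needed for cilia and dorsal patterning of the brain, was at 22.5, 8.91, 20.7 and 25 CPM in dcKO and at 10.2, 8.90, 11.2 and 12.2 CPM in WT, so that replicate 2 alone lay in the WT range (1.10 ± 0.17, edgeR adjusted p = 0.00557).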
